A study of Mus musculus with 18 samples.

Results

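The genes described here bring fatty acids into liver cells or carry them once inside. They are Cd36, Lpl and Vldlr, which act at the cell surface or in the blood vessel, the fatty acid binding proteins Fabp1, Fabp2, Fabp4 and Fabp5, and the transport and activation proteins Slc27a2, Slc27a4 and Acsl1. Every probe set of the Mouse430_2 array that was paired with exactly 1 of these symbols was taken, which gave 22 of 45037 probe sets. They belong to 9 of the 10 genes, out of 18193 genes in all. No probe set was paired with Acsl1 alone, so Acsl1 was not analysed here.

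Liver RNA of male C57BL/6J mice, bought at 5 weeks of age, was measured on 18 arrays in 3 groups of 6. The control group ate the purified diet AIN93G for 20 weeks. The Western group ate, for as long, a diet with 39.9% of its energy from fat and 34.0% from sucrose, made with 20% butter, 1% soy oil and 0.15% cholesterol. The third group ate that Western-style diet with 0.05% quercetin, a plant flavonol. Mice were caged in groups of 3 without a label for which mice shared a cage. The title of the study names the question, which is whether long intake of quercetin lessens the fat that such a diet leaves in the liver.

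Fatty acids reach the liver freed from adipose tissue or bound in lipoproteins. Lipoprotein lipase, the product of Lpl, releases them from circulating triglyceride, and CD36 takes them up at the cell membrane. Inside the cell, binding proteins keep them soluble, and acyl-CoA synthetases trap and activate them. Hepatocytes are known for much Fabp1 and Slc27a2. Lpl, Cd36 and Fabp4 are also known from macrophages, adipocytes or endothelium, and Lpl is low in the hepatocytes of adult animals. Several of these genes are known targets of the nuclear receptors of the PPAR family, whose half-site on DNA reads AGGTCA.

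Promoters are shown for 3 genes: Cd36 and Fabp2, which rose on the Western-style diet, and Fabp1, the main binding protein of hepatocytes. A change of Fabp1 could hardly be measured after the normalization, as given below. Fabp1 is thus no example of an unmoved gene. Each run holds 250 bases before and 50 bases after the start site of the gene in RefSeq (GRCm38.p6), 5′ to 3′ on the strand of the gene. Capitals mark the letters AGGTCA, searched on both strands, so that TGACCT is the same half-site on the opposite strand. Cd36 lies on the minus strand (chr5:17835847-17836146), Fabp2 on the plus strand (chr3:122894822-122895121) and Fabp1 on the plus strand (chr6:71199629-71199928).

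Cd36: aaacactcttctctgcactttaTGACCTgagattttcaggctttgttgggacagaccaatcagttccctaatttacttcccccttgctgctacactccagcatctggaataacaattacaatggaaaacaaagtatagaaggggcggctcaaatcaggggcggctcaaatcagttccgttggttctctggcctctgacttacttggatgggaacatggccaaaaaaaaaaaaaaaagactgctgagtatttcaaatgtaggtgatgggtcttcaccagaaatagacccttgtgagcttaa

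Fabp2: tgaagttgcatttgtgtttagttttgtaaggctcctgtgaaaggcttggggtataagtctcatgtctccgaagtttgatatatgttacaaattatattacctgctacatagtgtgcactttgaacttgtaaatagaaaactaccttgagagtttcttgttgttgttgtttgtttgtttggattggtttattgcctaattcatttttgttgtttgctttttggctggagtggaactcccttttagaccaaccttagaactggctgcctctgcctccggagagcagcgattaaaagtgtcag

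Fabp1: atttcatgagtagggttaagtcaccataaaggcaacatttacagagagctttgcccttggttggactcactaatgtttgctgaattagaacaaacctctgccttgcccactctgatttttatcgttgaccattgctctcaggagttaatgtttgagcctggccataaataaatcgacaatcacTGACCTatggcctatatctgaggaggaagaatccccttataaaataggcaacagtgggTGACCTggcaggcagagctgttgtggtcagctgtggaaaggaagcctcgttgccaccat

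The Cd36 window held the half-site letters 1 time, 228 bases before the start site. In the Fabp1 window they stood 2 times, 67 and 9 bases before it, and the Fabp2 window held 0. A promoter was found in the reference table for 7 of the 10 genes, Acsl1 included. Of those not printed, the Slc27a2 window held the letters 1 time, 220 bases before the start site. The windows of Vldlr, Slc27a4 and Acsl1 held none. Of all 32851 promoters of this length, 5340 (16.3%) held the same letters. The direct repeat AGGTCANAGGTCA, in exactly these letters, was in 13 of them (0.0396%) and in none of those of the 7 genes. Repeats that differ from these letters were not searched, so their absence is not shown. A match of letters describes the sequence only.

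Signals ran from 0.0118 to 12323.2 over the arrays, and the median signal of an array ran from 12.71 to 23.17. Levels below are log2(signal + 16) after quantile normalization, so a probe set without signal stands at log2 4, and a fold is a ratio of signal + 16. Control arrays 4 and 5 differed by far less than any other of the 153 pairs of arrays: the SD of their log2 differences was 0.0696, against 0.175 for the next closest pair. They were therefore averaged and counted as 1 sample, 4-5, which left 17 samples with n = 5 for control and n = 6 for the other groups. The hepatocyte markers Alb, Ttr and Apoa1 stood at mean log2 levels of 13.08, 13.20 and 13.43 in the control group.

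Of the 9 genes, 4 rose in the Western group against control: Lpl, Fabp4, Cd36 and Fabp2. None fell, and 5 did not pass the test (limma, Benjamini-Hochberg adjustment over 13645 genes, adjusted p under 0.05). Fabp1 is among the 5, and the normalization left it little room to change, as given below. Over all genes tested, 8.65% passed, 5.49% higher and 3.16% lower. The median log2 difference of the 9 genes was 0.18, where that of all genes tested was -0.015. These 4 genes also had groups that did not overlap, a pattern shown by 6.9% of all genes. The genes were grouped with earlier results of these data known, so the counts are a description.

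**Figure D1:**
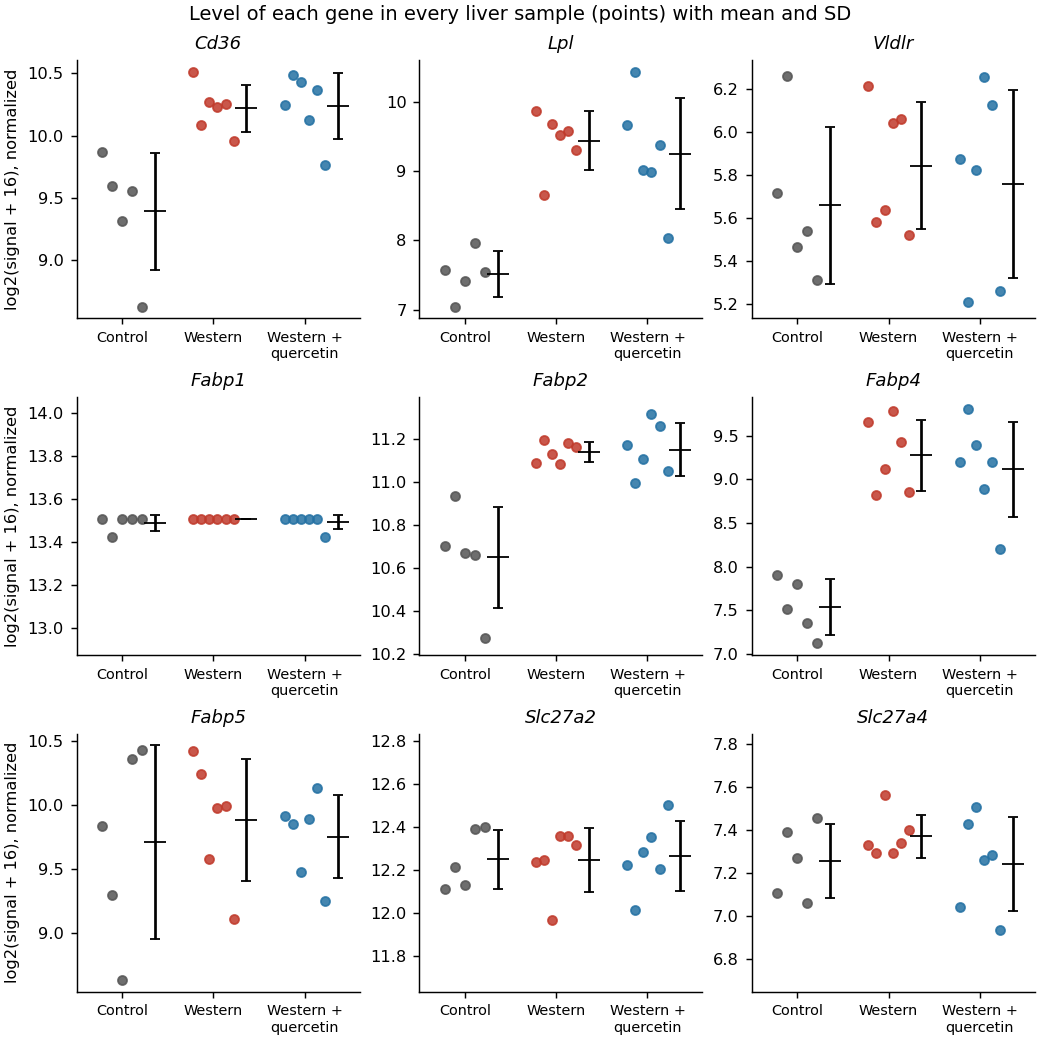
Level of each of the 9 genes, as normalized log2(signal + 16), in every liver sample of the control, Western and Western plus quercetin groups; points are samples, and the bars are the mean and SD, with an axis of its own for each gene. For Lpl, Fabp4 and Fabp2 every Western-fed sample of both groups lies above every control sample, while the groups overlap for Vldlr, Fabp5, Slc27a2 and Slc27a4.

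Lpl, the lipase that frees fatty acids from lipoprotein triglyceride, had log2 levels of 7.57, 7.04, 7.41, 7.97 and 7.55 in control samples 1, 2, 3, 4-5 and 6. The Western livers ran from 8.65 through a median of 9.56 to 9.87. The lowest Western liver, number 2, was thus above the highest control. The difference was 1.93 ± 0.31 (SE), a 3.81-fold rise (limma adjusted p = 0.00102). Both probe sets of Lpl rose, by 1.93 and 1.81 on the log2 scale. As deposited, before any normalization, the signal of the brighter probe set was 146.9 ± 41.6 (SD, n = 5) in control and 759.1 ± 240.7 (SD, n = 6) in Western livers.

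Cd36 encodes the membrane protein that takes up long-chain fatty acids and oxidized lipoprotein. Its control samples stood at 9.87, 9.60, 9.31, 9.55 and 8.63. The Western livers ran from 9.95 through 10.24 to 10.51, just clear of control 1, while control 6 lay far below the rest. The difference was 0.83 ± 0.18 (SE), a 1.77-fold rise (limma adjusted p = 0.00740). Without control 6 it was 0.64, and Cd36 still passed. Of its 3 probe sets, 1450883_a_at and 1423166_at rose, and 1450884_at, the dimmest, had a log2 difference of 0.54 that did not pass (adjusted p = 0.0766 over all probe sets).

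Vldlr, a receptor that binds triglyceride-rich lipoproteins, was dim on all 6 of its probe sets. Its control samples stood at 5.72, 6.26, 5.47, 5.54 and 5.31, and the Western livers ran from 5.52 through 5.84 to 6.21, within the control range. The difference was 0.18 with a 95% interval from -0.24 to 0.61 (limma adjusted p = 0.646). None of its probe sets passed, and their log2 differences ran from -0.048 to 0.23. The deposited signals of 1451156_s_at stayed between 0.53 and 9.91 in all 17 samples, so little could be measured with that probe set.

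Fabp4, the binding protein of adipocytes and macrophages, had control levels of 7.90, 7.52, 7.80, 7.35 and 7.12. The Western livers ran from 8.82 through 9.27 to 9.78, well above all of them. The difference was 1.74 ± 0.24 (SE), a 3.33-fold rise (limma adjusted p = 0.000348). Of its 4 probe sets 3 rose. The fourth, 1425809_at, had deposited signals between 5.93 and 22.4 in the control and Western samples and a log2 difference of 0.30 (adjusted p = 0.292 over all probe sets).

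Fabp2 encodes the binding protein named for the intestine. Its single probe set, 1418438_at, stood at 10.70, 10.93, 10.67, 10.66 and 10.28 in the control samples. The Western livers lay close together between 11.08 and 11.19, with a median of 11.15, above every control. The difference was 0.49 ± 0.094 (SE), a 1.40-fold rise (limma adjusted p = 0.00352). The deposited signal was 1477 ± 337 (SD, n = 5) in control and 2321 ± 131 (SD, n = 6) in Western livers. Of the 5 enterocyte markers on the array, Vil1, Lct and Cdh17 were below the filter on dim genes, with mean log2 levels of 4.42, 4.33 and 4.06 in control and of 4.34, 4.46 and 4.08 in Western livers. The other two were dim as well: Alpi had means of 4.91 and 4.99, and Cdx2, which fell, had 5.07 and 4.53.

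Fabp1, the chief fatty acid binding protein of hepatocytes, could show little change after quantile normalization. Its probe set 1417556_at had the highest signal of all probe sets on 16 of the 18 arrays, so the normalization set it to 13.50 in every sample but 2. As deposited, its signal was 11430 ± 303 (SD, n = 5) in control, 11680 ± 298 (SD, n = 6) in Western and 11630 ± 362 (SD, n = 6) in Western plus quercetin livers, with ranges that overlap. The other probe set, 1448764_a_at, had log2 means of 13.33, 13.28 and 13.26 in that order, and its Western difference was -0.052 (adjusted p = 0.830 over all probe sets). The deposited arrays are not at a common level. With array medians centred, 1417556_at differed from control by log2 -0.12 in the Western group (limma adjusted p = 0.396). In the quercetin group it differed from control by -0.15 (limma adjusted p = 0.313).

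Fabp5, a binding protein of skin, endothelium and macrophages, varied more among control livers than any difference between diets. Its levels were 9.84, 9.30, 8.64, 10.35 and 10.43 in control, and the Western livers ran from 9.11 through 9.98 to 10.42, inside that span. The difference was 0.17 with a 95% interval from -0.43 to 0.77 (limma adjusted p = 0.768).

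Slc27a2 and Slc27a4 encode fatty acid transport proteins that also activate very-long-chain and long-chain fatty acids. Slc27a2 stood at 12.12, 12.22, 12.13, 12.39 and 12.40 in control, and the Western livers ran from 11.97 through 12.28 to 12.36. Its difference was -0.0029 with a 95% interval from -0.20 to 0.20 (limma adjusted p = 0.990). Slc27a4 stood at 7.10, 7.39, 7.27, 7.06 and 7.45 in control, and the Western livers ran from 7.29 through 7.33 to 7.56. Its difference was 0.12, from -0.10 to 0.34 (limma adjusted p = 0.562). Both genes thus had groups that overlap. On the values as deposited, which do not level the arrays and which move the median of all genes up by 0.22, Slc27a4 rose by 0.40 (adjusted p = 0.0125).

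**Figure D2:**
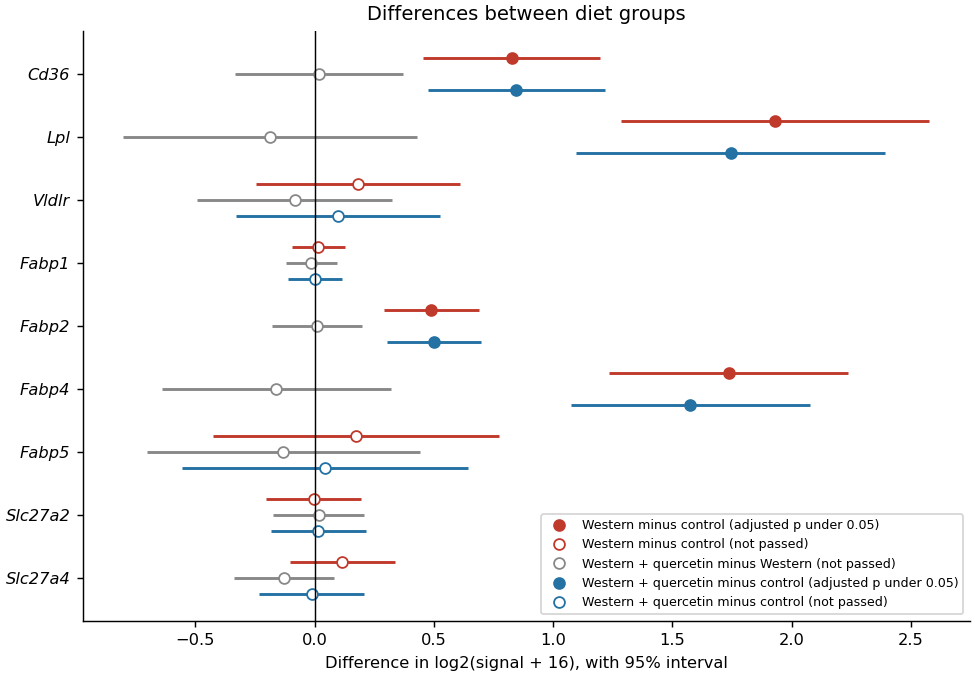
Difference in normalized log2(signal + 16) between diet groups for each gene (points) with its 95% interval (lines), for Western minus control, Western plus quercetin minus Western, and Western plus quercetin minus control. Filled points passed the test: Cd36, Lpl, Fabp2 and Fabp4 in both comparisons with control, and no gene between the Western groups with and without quercetin; the short intervals of Fabp1 come with a level that the normalization holds at 13.50.

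Adding quercetin to the Western-style diet moved none of the 9 genes past the threshold. In limma 0 of 13645 genes passed (0%), while 392 (2.87%) had an unadjusted p under 0.05. Groups that did not overlap were seen for 0.132% of all genes and for none of the 9. Of the 9 genes, 0 had an unadjusted p under 0.05, and their median log2 difference was -0.084, where that of all genes tested was -0.0053. All 9 adjusted p-values were 0.999913. Such values do not show that the groups are alike, and the intervals give what the 12 livers allow.

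The intervals were narrow for Fabp2 and Slc27a2 and wide for Lpl, Fabp4 and Fabp5. That of Fabp1 is not read, since the normalization held 11 of the 12 livers at 1 level. Fabp2 livers on quercetin ran from 11.00 through 11.14 to 11.31, and the difference from the Western group was 0.011 with a 95% interval from -0.18 to 0.20. For Slc27a2 it was 0.017, from -0.17 to 0.21, and for Slc27a4 -0.13, from -0.34 to 0.081. Cd36 on quercetin ran from 9.77 through 10.31 to 10.49, and its difference was 0.018, from -0.34 to 0.37.

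Lpl was the most scattered of the 4 risen genes among the livers on quercetin. It ran from 8.03 through 9.20 to 10.43, which reached below and above the whole Western group, and the difference was -0.19, from -0.80 to 0.43. The SD of Lpl was 0.80 on quercetin and 0.43 without it. Fabp4 ran from 8.20 through 9.20 to 9.81, and its difference was -0.16, from -0.64 to 0.32. Liver 6 of the quercetin group was the lowest of its group for Lpl, Fabp4 and Cd36, and liver 2 was the highest for the same 3 genes. Vldlr and Fabp5 had differences of -0.084, from -0.49 to 0.32, and of -0.13, from -0.70 to 0.44.

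Against the control diet, the livers on the Western-style diet with quercetin gave the same 4 genes. This comparison uses the same control samples as the one above, so the likeness of both is not independent. Of the 9 genes 4 rose, none fell and 5 did not pass, where 5.41% of all genes tested passed, 3.43% higher and 1.98% lower. The rise was 3.35-fold for Lpl (limma adjusted p = 0.00297), 2.98-fold for Fabp4 (0.00124), 1.80-fold for Cd36 (0.00883) and 1.41-fold for Fabp2 (0.00445). For Lpl, Fabp4 and Fabp2 the groups did not overlap, a pattern of 4.65% of all genes. For Lpl and Fabp2 the gap was narrow: the lowest liver on quercetin stood at 8.03 and 11.00, and the highest control at 7.97 and 10.93. For Cd36 liver 6 of the quercetin group, at 9.77, lay below control 1.

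At the level of probe sets, 8 of 22 rose in the Western group and 7 of 22 in the quercetin group against control. Over all 45037 probe sets, tested without a filter on dim ones, 3.01% and 1.92% passed, and 1.95% and 1.21% passed as higher. The probe sets that rose belonged to the same 4 genes each time: 2 of Cd36, 2 of Lpl and the 1 of Fabp2 in both, and of Fabp4 3 and then 2. Probe sets of 1 gene read the same transcripts, so they are no replicates of each other. Between the Western groups with and without quercetin 0 probe sets of 45037 passed (0%).

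**Figure D3:**
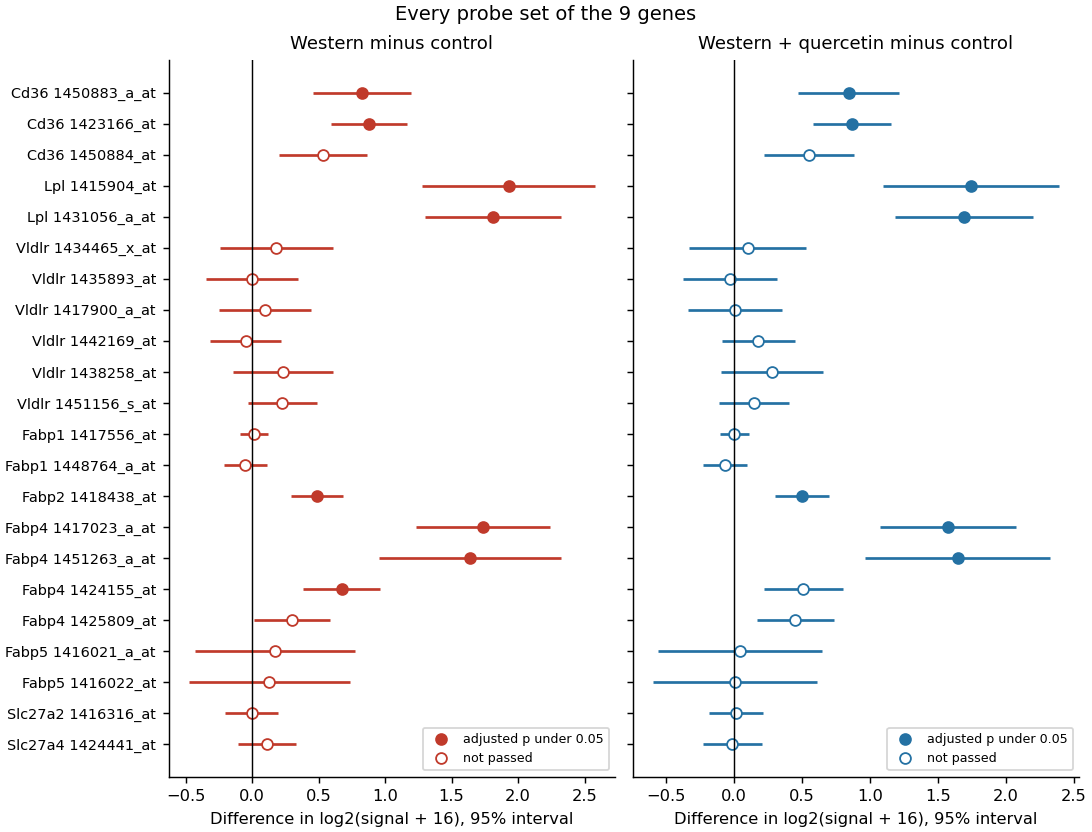
Difference in normalized log2(signal + 16) from control for every probe set of the 9 genes (points) with its 95% interval (lines), for the Western group on the left and the Western plus quercetin group on the right. Filled points passed the test over all probe sets and belong to Cd36, Lpl, Fabp2 and Fabp4. The dim probe sets of Fabp4 and Cd36 show smaller differences than the bright ones, but the added 16 shrinks differences of dim probe sets. For 1424155_at of Fabp4 the deposited signal was 7.53 ± 4.36 (SD, n = 5) in control and 24.4 ± 6.33 (SD, n = 6) in Western livers.

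Some markers of macrophages moved with the diet too. In whole liver, more cells of a type and more RNA per cell cannot be told apart. Of the 10 macrophage and Kupffer cell markers 4 rose in the Western group (Cd14, Cd5l, Cd68 and Lyz2) and none fell. The other 6, Adgre1, Csf1r, Clec4f, Vsig4, Marco and Timd4, did not pass. Marco and Timd4 had log2 differences of -0.83 and -0.40 (limma adjusted p = 0.219 and 0.283). The summed signal of all 10 ran from 3733 to 4532 in control, from 5482 to 9399 in Western and from 4396 to 12140 in Western plus quercetin livers. Of 5 markers of lipid-associated macrophages on the array 3 rose (Gpnmb, Lgals3 and Mmp12). Trem2 and Cd9 had log2 differences of 0.011 and 0.45 and did not pass. The sum of all 5 ran from 231.9 to 329.1, from 477.5 to 1176 and from 314.9 to 1524 in the same order.

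Of 7 hepatocyte markers 1 fell in the Western group (Tat, an enzyme of tyrosine breakdown) and none rose. Their summed signal ran from 44230 to 46860 in control and from 42180 to 45220 in Western livers. Most of this sum comes from Alb, Ttr, Apoa1 and Cyp2e1. Their levels lie close to 13.50, the level of the brightest probe set, so the sum had little room to rise after quantile normalization. The dimmer Tat, Hnf4a and Asgr1 had log2 differences of -0.79, -0.21 and -0.18, of which only that of Tat passed. Of 3 tested skeletal muscle markers none passed. Of the 4 adipocyte markers on the array, Adipoq and Lep were below the filter on dim genes, with mean log2 levels of 4.51 and 4.07 in control and of 4.35 and 4.11 in Western livers. The summed adipocyte signal ran from 66.25 to 159.3 in control and from 79.66 to 154 in Western livers. Of 6 endothelial markers 1 rose (Lyve1), and their sum ran from 1338 to 1538 and from 1421 to 1743. Of 6 stellate cell markers 4 rose, and their sum ran from 1267 to 1358 and from 1692 to 2433. Of the 2 tested enterocyte markers 1 fell (Cdx2), and the enterocyte sum ran from 32.95 to 51.39 and from 18.36 to 40.99. The part of these cells in the rise of Lpl, Cd36, Fabp4 and Fabp2 was not tested.

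Within the 12 Western-fed livers, Lpl, Cd36 and Fabp4 followed the macrophage marker level. Each group's mean was removed first, so that a difference between the groups plays no part, and 9 relations were computed. The share of all genes that follow this level was not computed, so whether the relation is particular to Lpl, Cd36 and Fabp4 was not tested. Like the macrophage sum, the stellate sum was highest in quercetin liver 2 (2735) and lowest in quercetin liver 6 (1615). The endothelial sum was highest in quercetin liver 5 (1777) and lowest in Western liver 2 (1421). For Lpl, Pearson's r was 0.94 (permutation p = 0.00038, adjusted 0.00342) and Spearman's rho was 0.91 (permutation p = 0.00031, adjusted 0.00279). For Cd36 r was 0.85 (permutation p = 0.00178, adjusted 0.00801) and rho 0.87 (permutation p = 0.00109, adjusted 0.00491). For Fabp4 r was 0.85 (permutation p = 0.00336, adjusted 0.0101) and rho 0.78 (permutation p = 0.00718, adjusted 0.0215). Without livers 2 and 6 of the quercetin group, the 2 farthest from the median marker level, r was 0.82 for Lpl, 0.81 for Cd36 and 0.67 for Fabp4.

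For the other genes no relation passed the adjustment. Fabp2, which rose with the diet, had a pooled r of -0.32 (permutation p = 0.464, adjusted 0.522) and a rho of -0.15 (permutation p = 0.669, adjusted 0.669). For Slc27a2 r was -0.68 (permutation p = 0.0250, adjusted 0.0562) and rho -0.60 (permutation p = 0.0556, adjusted 0.125), and r was -0.26 without the same 2 livers, so that relation rested on them. Fabp5 and Slc27a4 had r of 0.47 and 0.50 with adjusted permutation p-values of 0.192 and 0.281. Without the same 2 livers these were 0.44 and -0.028. Vldlr had an r of 0.096 (permutation p = 0.816), which was 0.51 without them. Fabp1 was held at 1 level by the normalization in 11 of these 12 livers, so its relation was not read.

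**Figure D4:**
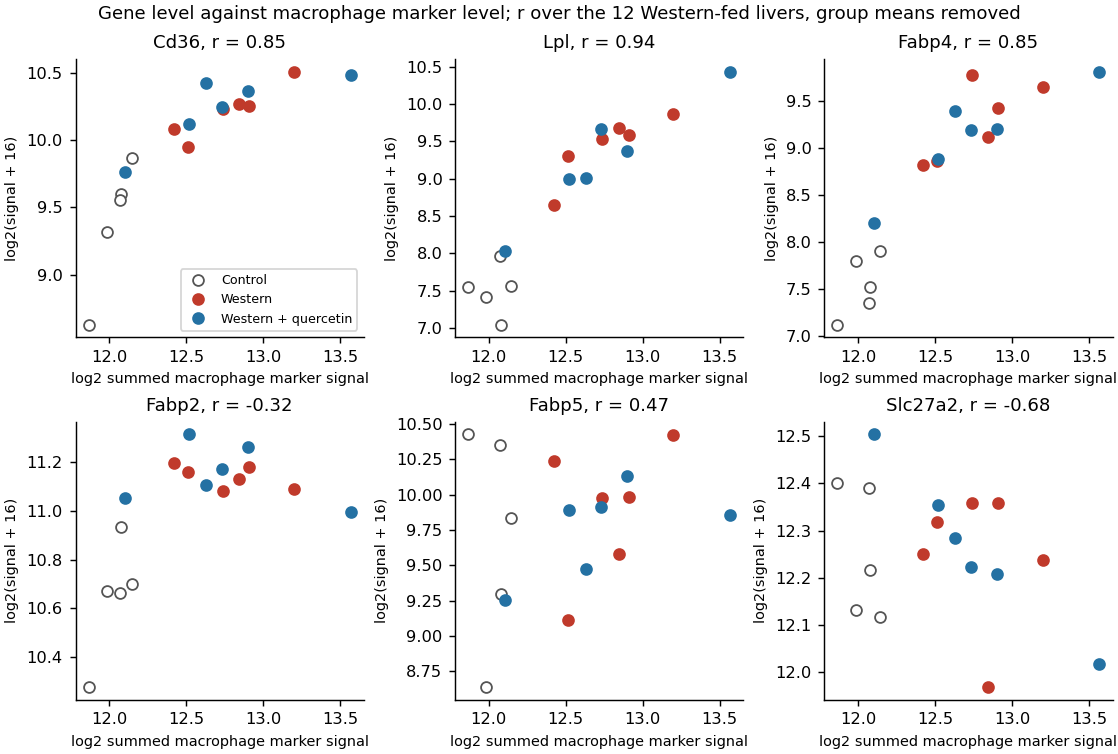
Normalized log2(signal + 16) of 6 genes against the log2 of the summed signal of 10 macrophage and Kupffer cell markers in each liver sample; open points are control, filled points the Western groups, and r is over the 12 Western-fed livers after removing group means. Lpl, Cd36 and Fabp4 climb with the marker level (r of 0.94, 0.85 and 0.85); r for Fabp2 is -0.32.

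The mice of each group carry numbers 1 to 6, and the analysis was repeated within numbers 1 to 3 and 4 to 6. The labels do not say that these numbers mark a cage or a batch. Western minus control, Lpl differed by 2.06 and 1.71 and Fabp4 by 1.45 and 2.12, and both passed in each number set (adjusted p from 0.0218 to 0.0461). Cd36 differed by 0.70 and 1.06 and passed in neither, with adjusted p-values of 0.0890 and 0.0768. Fabp2 differed by 0.37 and 0.67 (adjusted p = 0.169 and 0.0493). The macrophage relation had r of 0.93 and 0.95 for Lpl, 0.76 and 0.98 for Cd36 and 0.91 and 0.85 for Fabp4 within numbers 1 to 3 and 4 to 6, with n = 6 each. For Fabp2 it turned sign, with r of -0.91 and 0.66. Within numbers 4 to 6 r was also large for genes whose pooled relation did not pass. In the same order, r was 0.26 and 0.88 for Fabp5 and -0.21 and 0.84 for Vldlr. It was 0.23 and 0.71 for Slc27a4 and -0.56 and -0.82 for Slc27a2.

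Within numbers 4 to 6, none of the 4 genes passed between the quercetin group and control. There the differences were 1.04 for Lpl (adjusted p = 0.185), 1.53 for Fabp4 (0.0928), 0.99 for Cd36 (0.142) and 0.74 for Fabp2 (0.0681), with 2 control samples. Within numbers 1 to 3 Lpl, Fabp4 and Cd36 passed, and Fabp2 had a difference of 0.32 (adjusted p = 0.187). Between the Western groups with and without quercetin, the differences of Lpl and Fabp4 turned sign between the number sets. Lpl differed by 0.30 within numbers 1 to 3 and by -0.67 within 4 to 6 (limma adjusted p = 0.654 in the latter), and Fabp4 by 0.27 and -0.59 (limma adjusted p = 0.685 in the latter). The change between the number sets was -0.98 for Lpl, with a 95% interval from -2.12 to 0.16, and -0.86 for Fabp4, from -1.70 to -0.029 (limma adjusted p = 0.937 and 0.913).

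A test of the change in diet effect between these 2 number sets passed for none of the 9 genes in any of the 3 comparisons. Hardly any gene passed it: 1 of 13645 (0.00733%) for Western against control, 0 (0%) for quercetin within the Western-style diet, where 731 had an unadjusted p under 0.05, and 8 (0.0586%) for Western plus quercetin against control. The count of 0 of 9 thus says little about these genes. For Western plus quercetin against control, this change was -1.33 for Lpl (limma adjusted p = 0.507) and 0.42 for Fabp2 (limma adjusted p = 0.482).

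Fabp5 showed the widest contrast between the number sets. Control mice 1 to 3 had a mean of 9.26 and control samples 4-5 and 6 a mean of 10.39, while Western livers had means of 10.08 and 9.69. The Western difference was thus 0.82 within numbers 1 to 3 and -0.70 within 4 to 6. The change between them was -1.52 with a 95% interval from -2.54 to -0.51 (limma adjusted p = 0.800), which does not pass over all genes.

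The ratio of the 3' to the 5' signal of the actin control probe sets is a measure of RNA quality. On the log2 scale it was 0.69 ± 0.056 (SD, n = 5) in control, 0.54 ± 0.11 (SD, n = 6) in Western and 0.55 ± 0.078 (SD, n = 6) in Western plus quercetin livers. With this ratio as a covariate, Lpl, Fabp2 and Fabp4 still passed in the Western group (limma adjusted p = 0.0332, 0.0411 and 0.0160). Cd36 did not, with a difference of 0.69 (adjusted p = 0.121). In the quercetin group against control Fabp2 and Fabp4 passed, and Cd36 and Lpl had differences of 0.72 (adjusted p = 0.112) and 1.55 (adjusted p = 0.0560). The mean ratio was higher in control than in both Western-fed groups, so its part and that of the diet cannot be fully told apart. Over all genes, 223 passed for Western against control with the covariate and 1180 without it.

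Other genes of fatty acid transport, activation and binding were read in the same fit. Of 15 such genes 14 were on the array and 11 were tested. In the Western group 2 rose and none fell, with a median log2 difference of 0.042. Over all genes tested, 5.49% passed as higher and 3.16% as lower, and these shares also stand beside the lists below. The lists are short, so their counts are a description. Fabp7, the binding protein known from brain, rose 2.36-fold (limma adjusted p = 0.00232), and Acsl4, a synthetase with a preference for arachidonic acid, rose 1.55-fold (limma adjusted p = 0.0111). Slc27a5, the transport protein of liver that also activates bile acids, had a log2 difference of -0.19 (adjusted p = 0.190). Fabp3, the binding protein of heart, had one of -0.086 (adjusted p = 0.788). Fabp7 and Acsl4 also rose in the quercetin group against control, by 2.27-fold and 1.58-fold, where 3.43% of all genes tested were higher.

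Of the partners of the lipase and the lipoprotein receptors, 11 of 14 were tested and 1 rose. This was Apoc2, the cofactor that lipoprotein lipase needs, which rose 1.37-fold in the Western group (limma adjusted p = 0.00378) and 1.41-fold in the quercetin group against control. Scarb1, the receptor for high density lipoprotein, had a log2 difference of 0.22 (adjusted p = 0.113). The inhibitors of the lipase Angptl4 and Angptl8 had -0.29 (adjusted p = 0.281) and 0.18 (adjusted p = 0.783). Angptl8 had log2 means of 9.32 ± 0.47 (SD, n = 6) in Western and 8.91 ± 0.71 (SD, n = 6) in Western plus quercetin livers. The median of the 11 genes was 0.058 in the Western group and -0.044 in the quercetin group.

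Of 8 nuclear receptors that sense fatty acids or sterols, 1 rose. Pparg, the receptor that drives fat storage genes, had log2 means of 6.18 ± 0.24 (SD, n = 5) in control, 7.23 ± 0.22 (SD, n = 6) in Western and 7.20 ± 0.36 (SD, n = 6) in Western plus quercetin livers. It rose 2.06-fold in the Western group (limma adjusted p = 0.000764) and 2.03-fold in the quercetin group against control. Nr1h3, the oxysterol receptor LXR alpha, had a log2 difference of -0.18 (adjusted p = 0.152), Hnf4a of -0.21 (adjusted p = 0.160) and Ppard of -0.067 (adjusted p = 0.885). Ppard had log2 means of 5.25 ± 0.50 (SD, n = 6) in Western and 5.07 ± 0.24 (SD, n = 6) in Western plus quercetin livers. In all 3 lists 0 genes passed in limma between the Western groups with and without quercetin, and 0 had an unadjusted p under 0.05.

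**Figure D5:**
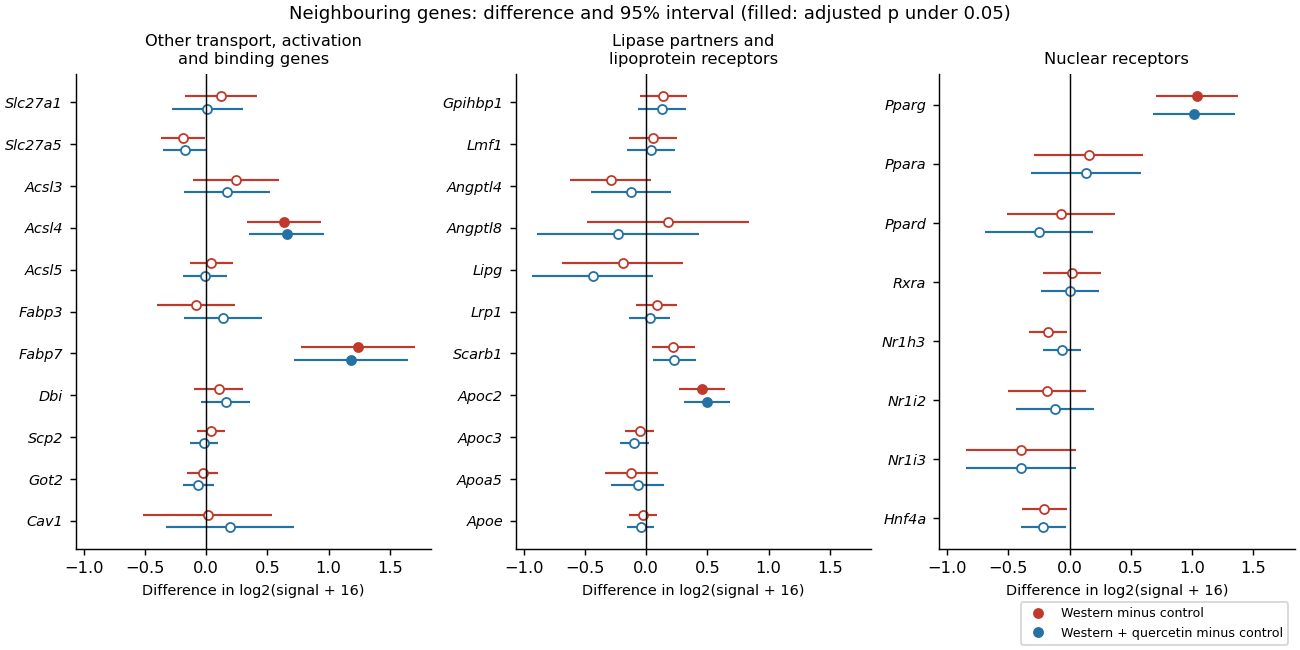
Difference in normalized log2(signal + 16) from control (points) with its 95% interval (lines) for the tested genes of 3 lists around the 9 genes: other transport, activation and binding genes, lipase partners and lipoprotein receptors, and nuclear receptors. Filled points passed the test; they are Acsl4, Fabp7, Apoc2 and Pparg, in the Western group and in the Western plus quercetin group.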

How the data were processed

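RNA of 18 mouse livers was read on Affymetrix arrays (Mouse430_2), with the RNA of each mouse labelled separately, per the labels. The deposited values are linear intensity values, 1 per probe set. No source used here gives the authors' software or scaling. Of 45101 probe sets 64 were controls. For the other 45037, log2(value + 16) was taken and the arrays were quantile normalized. The brightest probe set with exactly 1 symbol stood for each of 18193 genes (34945 probe sets had 1 symbol, 932 several, 9160 none). A filter at the 25th percentile of mean level (log2 4.564) kept 13645.

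The 3 groups were compared in limma 3.58.1 (R 4.3.3), using 1 linear model over 17 samples, eBayes and two-sided tests. Adjusted p-values are Benjamini-Hochberg over all genes, or over all probe sets for single probe sets. The macrophage relation used 1e+05 permutations within groups. The script was tested on simulated data. The number of arrays limits the precision. The labels give 1 mouse per array, so p-values measure the spread between mice. The cage of each mouse is not given, so cage mates were counted as independent.

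The genes and lists were chosen with earlier results of these data known. All 9 measured genes are named. From each other list the 3 genes with the smallest p for the Western group against control and 1 for quercetin were named. Those named for quercetin were Fabp3, Angptl8 and Ppard. The macrophage and enterocyte markers on the array are all named. In the other marker lists no single rule was kept, and names were chosen after seeing values. Alternatives were the normalization, the filter, the probe set rule, the pseudocount, blocks, the number sets 1 to 3 and 4 to 6, the actin covariate and leaving out each sample. The test of the change between number sets was added after seeing the data.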

Additional observations from a re-analysis of the deposited data

Results flagged for a closer look

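The spread within groups was checked for 27 gene and group combinations by the gap of the highest or lowest sample to its nearest neighbour, as a share of the whole range. Chance alone marks about 1 in 20, and 3 were marked. Liver 3 of the Western group stood apart for Slc27a2, at log2 11.97 where the nearest liver was at 12.24, a gap of 0.691 of the range. For Fabp1, control 2 and liver 6 of the quercetin group stood apart, both with a gap of 1 of the range. Both were at 13.42 while all other samples of their groups were at 13.50, the level that quantile normalization gives to the probe set with the highest signal on an array.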

How the results depend on the processing

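The 27 differences of the 9 genes were recomputed under 33 alternatives, 891 values in all. Of these 879 kept their side of the threshold, 11 lost it and 1 gained it, with 0 called differences reversed in sign. The losses were all within the number sets 1 to 3 and 4 to 6 or with the actin covariate. The gain was Slc27a4 on the values as deposited. No single sample left out changed the count of 4 genes in either comparison with control. For quercetin within the Western-style diet 0 genes passed under every alternative.

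Counts over all genes moved more. For Western against control they were 3725 on the values as deposited (3641 higher, 84 lower), 88 within numbers 1 to 3, 296 within numbers 4 to 6, and 223 with the actin covariate. Leaving out 1 sample gave 748 to 1394 genes, with 773 without control 6, 748 without Western 4 and 784 without Western 5. Of the 9 genes, 2 passed within numbers 1 to 3. For Western plus quercetin against control the counts were 3255 as deposited (3197 higher, 58 lower), 466 in a fit of only the 2 groups, 224 within numbers 1 to 3, 32 within numbers 4 to 6 and 155 with the actin covariate. Leaving out 1 sample gave 460 to 949, with 460 without control 6, 479 without quercetin liver 2 and 481 without quercetin liver 5. Of the 9 genes, 0 passed within numbers 4 to 6 and 2 with the actin covariate. Centring array medians gave 1284 genes (1108 higher, 176 lower) and 679 (575 higher, 104 lower), against 1180 (749 higher, 431 lower) and 738 (468 higher, 270 lower).

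Mice with the same number in different groups did not deviate together in every pair. Of 18 correlations, from -0.262 to 0.324, 16 were above 0 and 15 above 0.1, and in 13 of 18 the sample correlated best with its own number, which is a hint from the data that numbers are shared. Since not every pair was above 0.1, the numbers were not taken as pairs. With a replicate block the counts were 1252 genes for Western against control, 0 for quercetin and 790 for Western plus quercetin against control, and 4, 0 and 4 of the 9 genes passed. The macrophage relation passed for 3 of 9 genes, also with the lipid-associated list, and for 4 on the values as deposited. Dim probe sets, those of Vldlr above all, limit what could be detected. The causes of these shifts were not tested.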

Other observations

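Single livers shifted several of the 9 genes at once. Liver 6 of the quercetin group was the lowest of its group for 6 of 9 genes, and liver 2 was the highest for 3 and the lowest for 3 others (Vldlr, Fabp2 and Slc27a2). Western liver 1 was the highest of its group for Cd36, Lpl, Vldlr and Fabp5. Control 6 was the lowest control for Cd36, Vldlr, Fabp2 and Fabp4 and the highest for Fabp5, Slc27a2 and Slc27a4.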
